A study of Mus musculus with 22 samples.

Results

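To describe WNT ligands and their secreted antagonists during adipocyte differentiation, 10 genes were followed by RNA-seq: the ligands Wnt5a, Wnt5b, Wnt9a, Wnt10b and Wnt6, and the antagonists Sfrp1, Sfrp2, Dkk2, Dkk3 and Wif1. They were chosen by name, with earlier results of these data known, and each has a row among the 30170 genes of the count table. The cells were C3H 10T1/2, mouse mesenchymal stem cells able to become adipocytes, made to express DNMT3A in a WT form, with the change W330R, or with the changes W330R-R181E (the double mutant). WT and W330R cells were sampled undifferentiated and on days 2, 4 and 6 after a hormonal cocktail of isobutylmethylxanthine, dexamethasone, insulin and troglitazone, which was later replaced by medium with insulin. The double mutant was sampled on days 2, 4 and 6, so that 22 libraries covered 11 conditions with 2 libraries each. All groups share the parent line, and the labels give no cells without an introduced DNMT3A. The labels do not say whether replicates were separate cultures or separate lines, so the p-values below measure only the spread between these libraries. The model took libraries of the same replicate number on different days as independent. The second change of the double mutant is R181E in the labels and R181A in the headers of its 6 columns, and the spelling of the labels is used here.

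WNT proteins are secreted lipid-modified ligands that bind Frizzled receptors. With the co-receptors of the LRP family they stabilize beta-catenin, and through receptors such as Ror1 and Ror2 they act without it. Secreted antagonists work outside the cell: the Sfrp proteins and Wif1 bind the ligands, and Dkk proteins such as Dkk2 act on the co-receptors. Dkk3, a divergent member of that family, is listed with the antagonists by name. In mesenchymal precursors, signalling through beta-catenin is known to hold back adipocyte differentiation, and Wnt10b and Wnt6 are among the ligands known for it. DNMT3A is a de novo DNA methyltransferase, and W330 lies in its PWWP domain, which reads methylated histone H3.

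Since DNMT3A methylates CpG sites, the sequences just upstream of Dkk2 and Wif1, the members with the lowest and the highest fitted difference between the double mutant and W330R, are shown here with each CpG in capitals. They are RefSeq sequences of GRCm38.p6, 5′ to 3′ on the plus strand, at chr3:132085042-132085291 for Dkk2 and chr10:121033754-121033959 for Wif1. The last base printed for Wif1 is in capitals because its G follows just outside the stretch. No methylation was measured in these libraries.
Dkk2: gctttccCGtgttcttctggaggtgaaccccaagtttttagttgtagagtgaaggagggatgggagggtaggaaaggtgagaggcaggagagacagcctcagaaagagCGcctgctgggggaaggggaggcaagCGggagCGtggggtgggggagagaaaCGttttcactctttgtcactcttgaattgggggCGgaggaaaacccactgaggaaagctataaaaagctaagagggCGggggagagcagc
Wif1: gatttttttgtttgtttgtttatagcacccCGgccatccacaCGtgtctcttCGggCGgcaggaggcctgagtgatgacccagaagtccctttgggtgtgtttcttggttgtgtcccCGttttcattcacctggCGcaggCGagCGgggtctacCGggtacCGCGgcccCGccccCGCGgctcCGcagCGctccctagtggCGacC
In windows of 300 bases, 250 before and 50 after the start, Dkk2 held 11 CpG and Wif1 25, beside a median of 7 over 32851 promoters. At least as many CpG were found in 41.4% of all promoters for Dkk2 and in 18.4% for Wif1. Of the other members with a promoter in the table, Wnt9a held 58, Wnt6 31, Sfrp2 22 and Wnt10b 18, and the 3 promoters of Wnt5b held 47, 7 and 4. The letters CTTTGAT, the core of the motif bound by TCF and LEF factors, were searched on both strands and stood in 3.73% of all promoters. Among the 9 promoters of members they stood in 1, the one of Wnt5b with 7 CpG. Wnt5a, Sfrp1 and Dkk3 are not in the promoter table.

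Between 8859501 and 47453908 reads were counted per library, with a median of 19355792. Values are CPM (counts divided by the library total and scaled to a common total) after TMM scaling, and a count of 3 in 1 library was taken as the floor of what the depth can show. Of the 10 members, 8 passed the filter on low counts and Wnt10b and Wnt6 did not. Wif1 passed through WT and double-mutant libraries alone, with 0 of 8 W330R libraries at the cutoff of 0.517 CPM, and Dkk2 reached it in 6 W330R, 4 WT and 1 double-mutant library. Dnmt3a itself was at 316 to 347 CPM in undifferentiated cells, at 105 to 322 in WT, 87.4 to 142 in W330R and 68.5 to 148 in the double mutant on days 2 to 6. The counts do not separate the introduced from the resident gene.

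Per kilobase of transcript, the antagonists Sfrp1 and Sfrp2 were the most abundant members. Their mean levels over the 22 libraries were 45.8 ± 16.4 and 39.6 ± 13.3 CPM per kb, where the error is the SD between libraries of the same condition, and they did not differ beyond it. Wnt5b followed at 7.35 ± 3.40 and Wnt5a at 2.57 ± 0.492 CPM per kb, each apart from its neighbours above by more than this spread. Wif1 (0.664 ± 1.04), Wnt9a (0.534 ± 0.212), Dkk3 (0.364 ± 0.159) and Dkk2 (0.267 ± 0.112) formed a low group in which no neighbours differed beyond their spread. Wnt6 (0.0548 ± 0.0562) and Wnt10b (0.0270 ± 0.0981) were lowest and did not differ from each other. The order was not the same in every condition. In the double mutant the mean of Wif1 stood above that of Wnt5a on day 2 (2.92 and 0.992 CPM per kb) and was level with it on day 4 (1.15 and 1.13). The 2 Wif1 libraries were far apart, at 5.08 and 0.756 CPM per kb on day 2 and 1.72 and 0.569 on day 4. On both days they lay on either side of the Wnt5a libraries, so this change of order is within the spread. Wnt5a stood above Wnt5b in undifferentiated WT cells (0.951 and 0.682 CPM per kb), and Sfrp2 above Sfrp1 on day 6 in WT (112 and 57.3) and W330R (113 and 57.3).

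**Figure D1:**
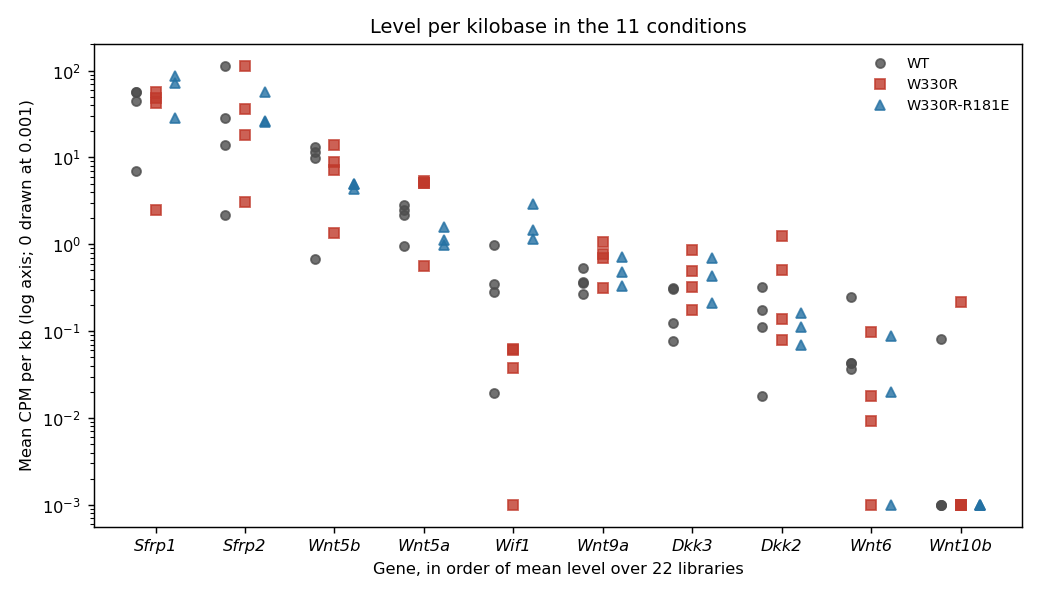
Mean CPM per kb of each member (log axis, with 0 drawn at 0.001) in the 11 conditions, each point being the mean of 2 libraries of WT (circles), W330R (squares) or W330R-R181E (triangles). Sfrp1 and Sfrp2 lie at the top with means of 45.8 and 39.6 CPM per kb. Among the points of Wif1, W330R is the lowest at each stage. The point of undifferentiated WT cells, at 0.0192 CPM per kb, lies below those of W330R at the later stages.

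The questions behind the design were how each DNMT3A form changes expression at the same stage. W330R was therefore compared with WT, averaged over 4 stages, and the double mutant with W330R and with WT, averaged over days 2 to 6. The contrasts share libraries (the W330R libraries enter both of the former, and WT and the double mutant recur in the last), so their values are given side by side and are not independent. By edgeR's quasi-likelihood test with Benjamini-Hochberg adjustment (adjusted p under 0.05), 4 of the 8 members tested were called between W330R and WT, all higher in W330R: Wnt5a, Wnt9a, Dkk2 and Dkk3. The same rule called 22.9% of the 14520 genes tested, 11.2% as higher. The members were chosen with earlier results of these data known, so counts beside such shares describe the set and do not test it. Over days 2 to 6 alone, the days of the other 2 contrasts, the same 4 members stayed called as higher. Wif1 was then called as well, as lower in W330R (log2 -3.05 ± 0.82, adjusted p = 0.0135, edgeR). It passed the filter through WT and double-mutant libraries alone, so its calls against W330R, here and below, are a description only. The share of all genes called over these days alone is not given here. Between the double mutant and W330R, 4 of 8 were called, with Wnt5a, Wnt5b and Dkk2 lower and Wif1 higher, beside 17.2% of all genes (9.36% lower and 7.87% higher). Between the double mutant and WT, 3 of 8 were called, with Wnt5a and Wnt5b lower and Dkk3 higher, beside 9.57% of all genes (5.12% lower and 4.46% higher).

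**Figure D2:**
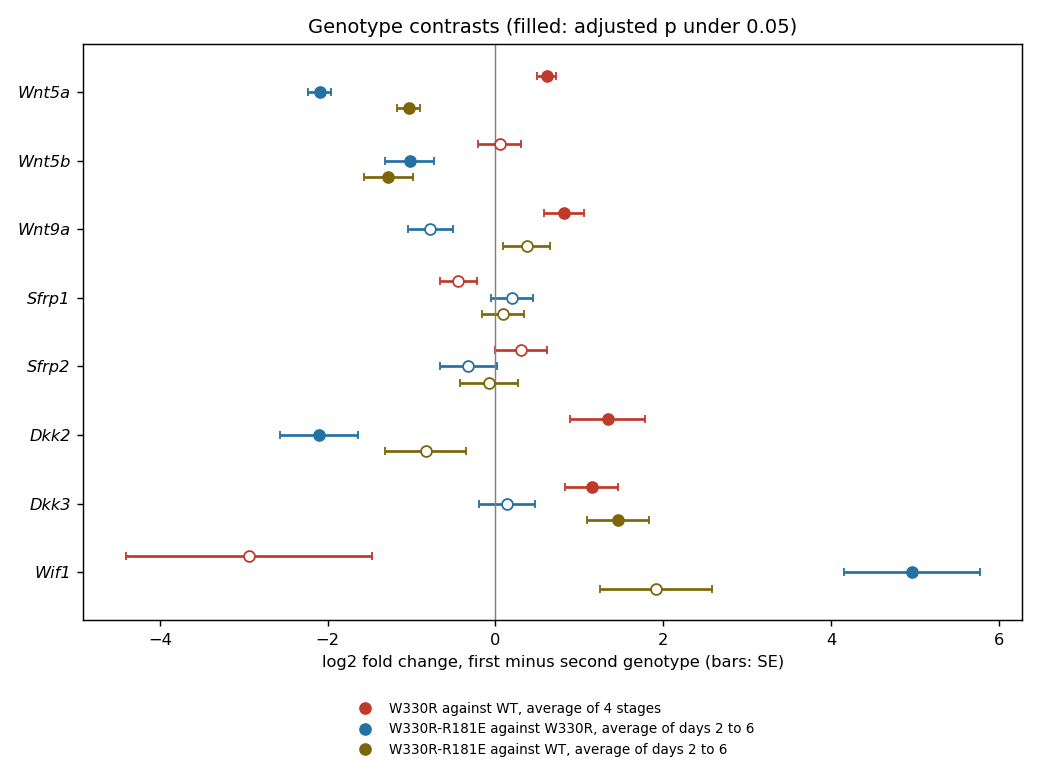
Log2 fold changes (x axis) with standard errors for the 8 members tested, in the 3 genotype contrasts (colours); filled points had an adjusted p under 0.05. Wnt5a lies at 0.61 for W330R against WT over 4 stages (1.06 over days 2 to 6 alone, not drawn). For the double mutant against W330R and WT over days 2 to 6 it lies at -2.10 and -1.03. The Wif1 points have the widest errors and rest on at most 6 reads per W330R library.

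Wnt5a, a ligand best known for signalling without beta-catenin, differed between the genotypes without overlap of libraries at every stage. In WT its levels were 6.34 and 6.99 CPM in undifferentiated cells, 18.3 and 16.2 on day 2, 18.6 and 12.1 on day 4, and 21.6 and 18.1 on day 6. In W330R they were 3.67 and 4.28 CPM undifferentiated, 35.3 and 39.9 on day 2, 41.9 and 29.8 on day 4, and 37.3 and 33.6 on day 6. The double mutant held 6.98 and 6.93 CPM on day 2, 6.99 and 8.83 on day 4, and 9.18 and 13.2 on day 6. On each of the 3 days both W330R libraries were above both WT libraries and both double-mutant libraries were below them, with no overlap, whereas in undifferentiated cells W330R was the lower of the pair of genotypes.

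Averaged over 4 stages, Wnt5a was 1.52-fold higher in W330R than in WT (log2 0.61 ± 0.12 SE, adjusted p = 0.00285, edgeR). Over days 2 to 6 alone it was higher by log2 1.06 ± 0.13 (adjusted p = 0.000102, edgeR). By stage it was 2.18-fold higher on day 2 (adjusted p = 0.0188), 2.34-fold on day 4 (adjusted p = 0.0107) and 1.78-fold on day 6 (adjusted p = 0.0396), by the same edgeR test. In undifferentiated cells the log2 difference was -0.75 ± 0.26 (adjusted p = 0.193), and edgeR called 0 of the 8 members there (2 at an unadjusted p under 0.05, 1 with DESeq2), beside 1.75% of all genes. At these single days Wnt5a was the 1 member called, beside 3.06%, 6.14% and 7.54% of all genes. The change of the W330R effect from undifferentiated cells to day 2 was itself called, at log2 1.88 ± 0.35 (adjusted p = 0.0142, edgeR), beside 1.87% of all genes. The day 2 call was lost without any 1 of the 4 day 2 libraries (adjusted p 0.0535 without WT replicate 1, 0.178 without WT replicate 2, 0.0548 without W330R replicate 1 and 0.113 without W330R replicate 2). The day 4 call was lost without WT day 4 replicate 2 (log2 0.95, adjusted p = 0.152) or W330R day 4 replicate 1 (0.99, adjusted p = 0.0971), and the day 6 call held in 12 of 22 such fits. Fitted with the compared conditions alone, which leaves fewer libraries for the spread, none of the 3 days was called (adjusted p = 0.156, 0.12 and 0.0789).

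In the double mutant the level was below both others. Wnt5a was 4.27-fold lower than in W330R over days 2 to 6 (log2 -2.10 ± 0.14, adjusted p = 1.44e-06, edgeR), by 5.40-fold on day 2, 4.52-fold on day 4 and 3.20-fold on day 6 (adjusted p = 0.000186, 0.00182 and 0.00466). It was the 1 member called on each of these days, beside 2.67%, 1.91% and 1.5% of all genes, and was not called on any of them when the compared conditions were fitted alone (adjusted p = 0.227, 0.0849 and 0.122). With the replicate number as a block 2 members were called on day 2 and 3 on day 6. By edgeR, Wif1 was added on day 2 (adjusted p = 0.0275) and Wnt5b and Dkk2 on day 6 (adjusted p = 0.0354 and 0.0399). The share of all genes called with the block is not given here. Against WT, Wnt5a in the double mutant was 2.05-fold lower (log2 -1.03 ± 0.14, adjusted p = 0.00136, edgeR). Leaving out any 1 of the 22 libraries kept the calls of all 3 averaged contrasts, and the day 4 call against W330R was lost without double-mutant day 4 replicate 1 (log2 -2.04, adjusted p = 0.0554). The gene span of Wnt5a overlaps that of the antisense gene Gm2670. Overlap of their exons was not examined, and counting by strand is not stated in the sources used here. Whether reads of both were mixed is therefore not known.

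**Figure D3:**
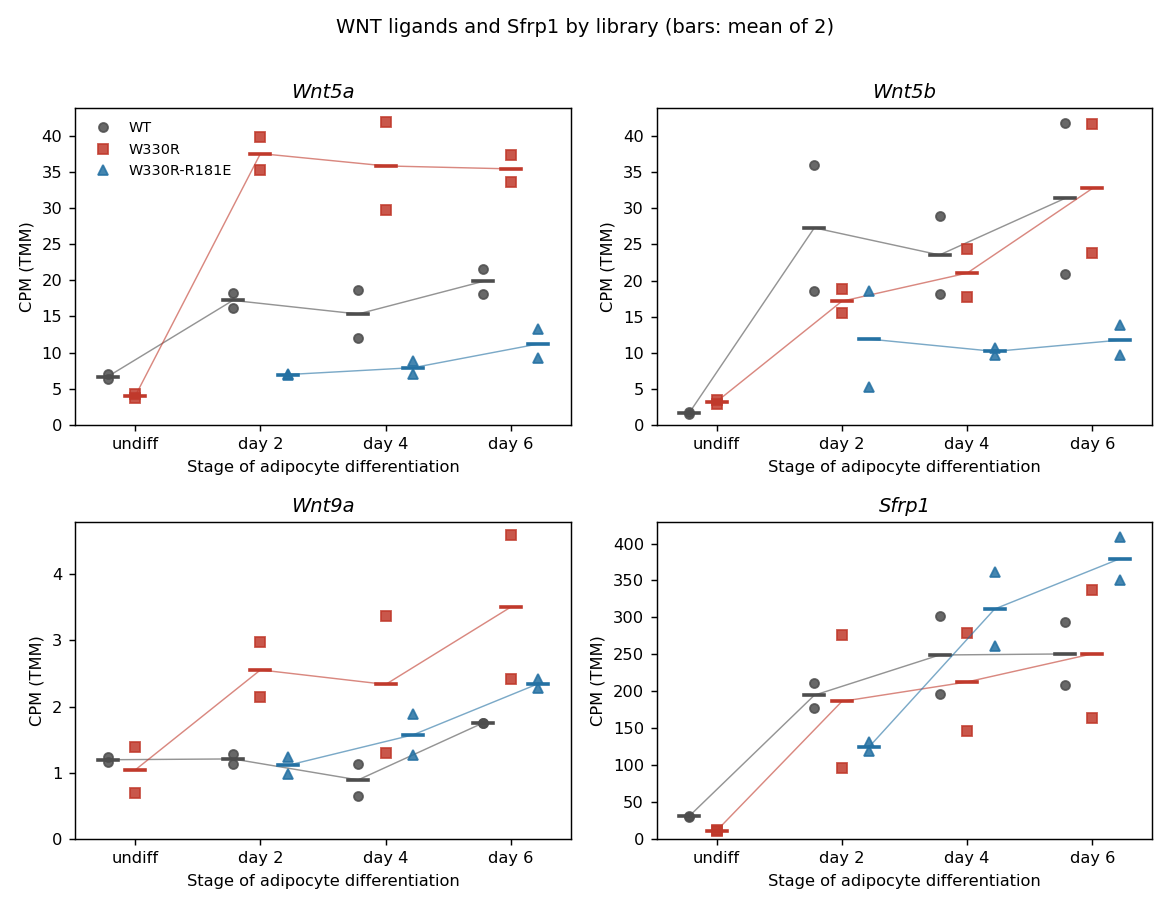
CPM after TMM scaling of Wnt5a, Wnt5b, Wnt9a and Sfrp1 (y axes from 0) by stage (x axis), with 1 point per library, bars for the mean of 2 and lines between means. For Wnt5a on days 2 to 6 the W330R libraries lie between 29.8 and 41.9 CPM, the WT libraries between 12.1 and 21.6, and the double mutant between 6.93 and 13.2.

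Wnt5b, the closest relative of Wnt5a, was lower in the double mutant than in either other genotype. Its levels in WT were 1.50 and 1.74 CPM undifferentiated, 36.0 and 18.6 on day 2, 28.9 and 18.1 on day 4, and 41.9 and 20.9 on day 6. W330R held 2.94 and 3.47 CPM undifferentiated, then 18.8 and 15.5, 24.3 and 17.7, and 41.7 and 23.9 on days 2, 4 and 6. Double-mutant levels were 18.6 and 5.20, 10.6 and 9.70, and 13.8 and 9.64 CPM on those days. W330R and WT overlapped on all 3 days, while the double mutant lay below WT throughout and overlapped W330R on day 2 alone. Replicate 1 was above replicate 2 in 9 of 9 conditions of days 2 to 6.

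The double mutant had 2.03-fold less Wnt5b than W330R (log2 -1.02 ± 0.29, adjusted p = 0.027) and 2.42-fold less than WT (log2 -1.28 ± 0.29, adjusted p = 0.0173) by edgeR's test. W330R and WT differed by log2 0.05 ± 0.26 (adjusted p = 0.944), a value that turned to -0.26 with days 2 to 6 alone (adjusted p = 0.541). The call against W330R was lost without W330R replicate 1 of day 2, 4 or 6 (adjusted p = 0.0612, 0.0714 and 0.0841), without double-mutant day 4 replicate 1 or 2 (adjusted p = 0.0542 and 0.0626) or without its day 6 replicate 2 (adjusted p = 0.0721). The call against WT was lost without double-mutant day 4 replicate 1 (adjusted p = 0.0543). Both were lost when the compared conditions were fitted alone (adjusted p = 0.0506 and 0.109). The gene span of Wnt5b overlaps that of Fbxl14 on the other strand. Overlap of their exons was not examined, so whether reads of both were mixed is not known.

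Wnt9a, a ligand that can signal through beta-catenin, was low and rose in W330R. WT libraries held 1.23 and 1.16 CPM undifferentiated, 1.28 and 1.13 on day 2, 0.650 and 1.13 on day 4, and 1.76 and 1.75 on day 6. In W330R the levels were 1.39 and 0.694, 2.14 and 2.97, 3.37 and 1.30, and 4.59 and 2.42 CPM at the same stages. The double mutant had 0.985 and 1.24, 1.88 and 1.26, and 2.42 and 2.27 CPM on days 2, 4 and 6. On each of these days W330R lay above WT without overlap, and in undifferentiated cells the genotypes overlapped. Over 4 stages W330R was 1.76-fold higher than WT (log2 0.82 ± 0.24, adjusted p = 0.0261, edgeR), and over days 2 to 6 alone the log2 difference was 1.15 ± 0.27 (adjusted p = 0.00672). The 4-stage call held in 14 of 22 fits that left out 1 library. It was lost without WT undifferentiated replicate 1 or 2 (adjusted p = 0.0517 and 0.0607), W330R undifferentiated replicate 1 (0.102), WT replicate 2 of day 2 or 6 (0.061 and 0.0589), W330R day 2 replicate 2 (0.0626) and W330R replicate 1 of day 4 or 6 (0.0724 and 0.0716). The double mutant differed by log2 -0.78 ± 0.27 from W330R (adjusted p = 0.0636) and by 0.37 ± 0.28 from WT (adjusted p = 0.421). The former value was called without W330R day 4 replicate 2 (-0.97, adjusted p = 0.0221) or W330R day 6 replicate 2 (-0.91, adjusted p = 0.0485).

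Wnt10b and Wnt6, the ligands of this set best known for holding back adipocyte differentiation, were near or under the floor in most libraries. Wnt10b had 0 counts in 20 of 22 libraries, 5 counts (0.440 CPM) in WT undifferentiated replicate 1 and 60 counts (1.17 CPM) in W330R day 6 replicate 1, whose partner library had 0. Wnt6 had 0 counts in 9 libraries and at most 13 (0.737 CPM, WT day 6 replicate 1). Neither passed the filter, so no difference between genotypes was tested for them. For Wnt10b the 2 libraries of W330R day 6 disagreed. On day 6 Wnt6 was at 0.737 and 0.292 CPM in WT and 0.156 and 0.246 in W330R, on at most 13 counts a library.

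Sfrp1, which binds WNT ligands through a Frizzled-like domain, was abundant in every genotype and was not called in any averaged contrast. WT levels were 29.7 and 31.4 CPM undifferentiated, 178 and 212 on day 2, 301 and 197 on day 4, and 293 and 208 on day 6. In W330R they were 11.4 and 10.5, 96.5 and 276, 146 and 279, and 164 and 337 CPM. The double mutant held 132 and 118, 361 and 261, and 409 and 350 CPM on days 2, 4 and 6. W330R libraries on days 2 to 6 spread widely, with replicate 2 above replicate 1 each day, and enclosed or overlapped the WT values. In undifferentiated cells both W330R libraries lay below both WT libraries, with a log2 difference of -1.47 ± 0.47 (adjusted p = 0.157). The averaged log2 differences were -0.44 ± 0.22 for W330R against WT (adjusted p = 0.169), 0.19 ± 0.25 for the double mutant against W330R (adjusted p = 0.672) and 0.09 ± 0.25 against WT (adjusted p = 0.856). Without W330R day 2 replicate 2 the first became -0.68 and was called (adjusted p = 0.0263).

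Sfrp2, a related antagonist, was marked by its increase with time in WT and W330R. WT libraries held 4.23 and 4.59 CPM undifferentiated, 35.6 and 20.7 on day 2, 75.2 and 38.3 on day 4, and 256 and 192 on day 6. W330R libraries held 6.04 and 6.36, 27.2 and 46.2, 74.2 and 68.7, and 235 and 218 CPM. In the double mutant the levels were 87.3 and 14.4, 71.0 and 34.5, and 139 and 89.0 CPM on days 2, 4 and 6. The day 6 libraries of the double mutant lay below all 4 others of that day, whereas the groups overlapped on days 2 and 4. The averaged log2 differences of 0.31 ± 0.31, -0.32 ± 0.34 and -0.08 ± 0.34 were not called (adjusted p = 0.525, 0.582 and 0.928, in the order above). Without double-mutant day 2 replicate 1, at 87.3 CPM, the second became -0.93 and was called (adjusted p = 0.0241). The gene span of Sfrp2 overlaps that of the antisense gene Gm26771. Overlap of their exons was not examined, so whether reads of both were mixed is not known.

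Dkk2, a ligand of the LRP co-receptors, rose from day 2 to day 6 in W330R, though the change of its genotype differences over these days was not called (log2 1.63 ± 1.09 for W330R against WT, adjusted p = 0.915 by edgeR). In WT it was at 0 and 0.134 CPM undifferentiated, 0.529 and 0.295 on day 2, 0.722 and 0.592 on day 4, and 1.30 and 1.07 on day 6. In W330R the levels were 0 and 0.578, 0.481 and 0.533, 1.53 and 2.19, and 3.83 and 5.46 CPM. The double mutant stayed at 0.410 and 0.0990, 0.486 and 0.348, and 0.442 and 0.758 CPM on days 2, 4 and 6. Both W330R libraries were above all others on days 4 and 6, and the double mutant lay below W330R on all 3 days.

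Pooled over the libraries of a condition, W330R had 83 reads against 21 in WT on day 4, a ratio of 3.001 after scaling (exact 95% interval 1.84 to 5.10), and 330 against 45 on day 6, a ratio of 3.70 (2.70 to 5.17). On day 2 the ratio was 1.32 (0.641 to 2.84). These intervals, and those for Wif1 below, cover counting error only. Over 4 stages the fitted log2 difference was 1.34 ± 0.45 (adjusted p = 0.0437, edgeR), and over days 2 to 6 alone 1.27 ± 0.44 (adjusted p = 0.0426). The 4-stage value includes undifferentiated cells with at most 5 reads a library. Without W330R undifferentiated replicate 2 it was -0.03 (adjusted p = 0.867), and it was called in 7 of 22 fits that left out 1 library. The double mutant was 4.28-fold below W330R (log2 -2.10 ± 0.46, adjusted p = 0.00701, edgeR), a call that held in 22 of 22 such fits. Against WT the log2 difference was -0.83 ± 0.48 (adjusted p = 0.285).

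Dkk3, a divergent member of the Dkk family, was higher in both mutants than in WT. The WT libraries held 0.793 and 1.29 CPM undifferentiated, 0.227 and 0.295 on day 2, 0.289 and 0.538 on day 4, and 1.42 and 0.632 on day 6. Levels in W330R were 0.653 and 2.66, 0.481 and 0.685, 1.34 and 0.852, and 2.66 and 3.12 CPM. The double mutant held 0.493 and 0.941, 1.82 and 1.04, and 2.42 and 2.27 CPM on days 2, 4 and 6. On each of these days both mutants lay above WT without overlap. W330R was 2.21-fold above WT over 4 stages (log2 1.15 ± 0.31, adjusted p = 0.0182) and the double mutant 2.76-fold above WT over days 2 to 6 (log2 1.46 ± 0.37, adjusted p = 0.0254) by edgeR's test, while the mutants differed from each other by 0.14 ± 0.34 (adjusted p = 0.843). The first call was lost without W330R undifferentiated replicate 2 (log2 0.82, adjusted p = 0.0638). The second was lost without WT replicate 2 of day 2 or 6 (adjusted p = 0.0655 and 0.0809), or double-mutant day 2 replicate 2, day 4 replicate 1 or day 6 replicate 1 (adjusted p = 0.0546, 0.0812 and 0.0623), or when the compared conditions were fitted alone (log2 1.47, adjusted p = 0.0811).

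Wif1, which binds WNT ligands through its own WIF domain, was nearly absent in W330R and highest in the double mutant. In WT it was at 0.0881 and 0 CPM undifferentiated, 3.78 and 0.689 on day 2, 0.794 and 0.484 on day 4, and 1.47 and 0.146 on day 6. The 8 W330R libraries held 0 and 0, 0.0535 and 0.228, 0.0636 and 0.111, and 0.0389 and 0.246 CPM, or at most 6 reads each. In the double mutant the levels were 11.7 and 1.73, 3.95 and 1.30, and 4.74 and 1.95 CPM on days 2, 4 and 6. All double-mutant libraries were above the W330R libraries of the same day, and above the WT libraries on days 4 and 6. WT and W330R overlapped on day 6 and did not on days 2 and 4. Replicate 1 exceeded replicate 2 in 6 of 9 conditions of days 2 to 6, those of WT and the double mutant.

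The pooled reads of Wif1 in the double mutant and W330R were 177 and 7 on day 2, 95 and 4 on day 4, and 222 and 8 on day 6. After scaling to library totals these gave ratios of 35.1 (exact 95% interval 16.7 to 88.6), 25.7 (9.72 to 96.3) and 40.3 (20.1 to 94.4). The difference averaged over days 2 to 6 was called (log2 4.96 ± 0.81, adjusted p = 0.00119, edgeR). In fits without 1 library it was log2 4.32 to 5.46. Wif1 passed the filter through WT and double-mutant libraries alone, where it was higher, so its calls against W330R are a description only. Of W330R to WT the ratios were 0.0816 (0.0316 to 0.178), 0.152 (0.0377 to 0.453) and 0.139 (0.0549 to 0.312). The 4-stage test did not call this difference (adjusted p = 0.169), which includes undifferentiated cells with 1 read in WT and 0 in W330R. It was called over days 2 to 6 alone (adjusted p = 0.0135) and with DESeq2 (adjusted p = 0.012). The double mutant had 2.87 (2.14 to 3.88), 3.90 (2.39 to 6.68) and 5.60 (3.79 to 8.55) times the WT level on days 2, 4 and 6. That averaged difference had an adjusted p of 0.0864 by edgeR and was called without WT replicate 1 of day 2 or 6 (adjusted p = 0.0497 and 0.0384) or double-mutant day 2 replicate 2 (adjusted p = 0.0389). It was also called with the replicate number as a block (log2 1.89 ± 0.54, adjusted p = 0.0337) and without the filter on low counts (adjusted p = 0.0344).

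**Figure D4:**
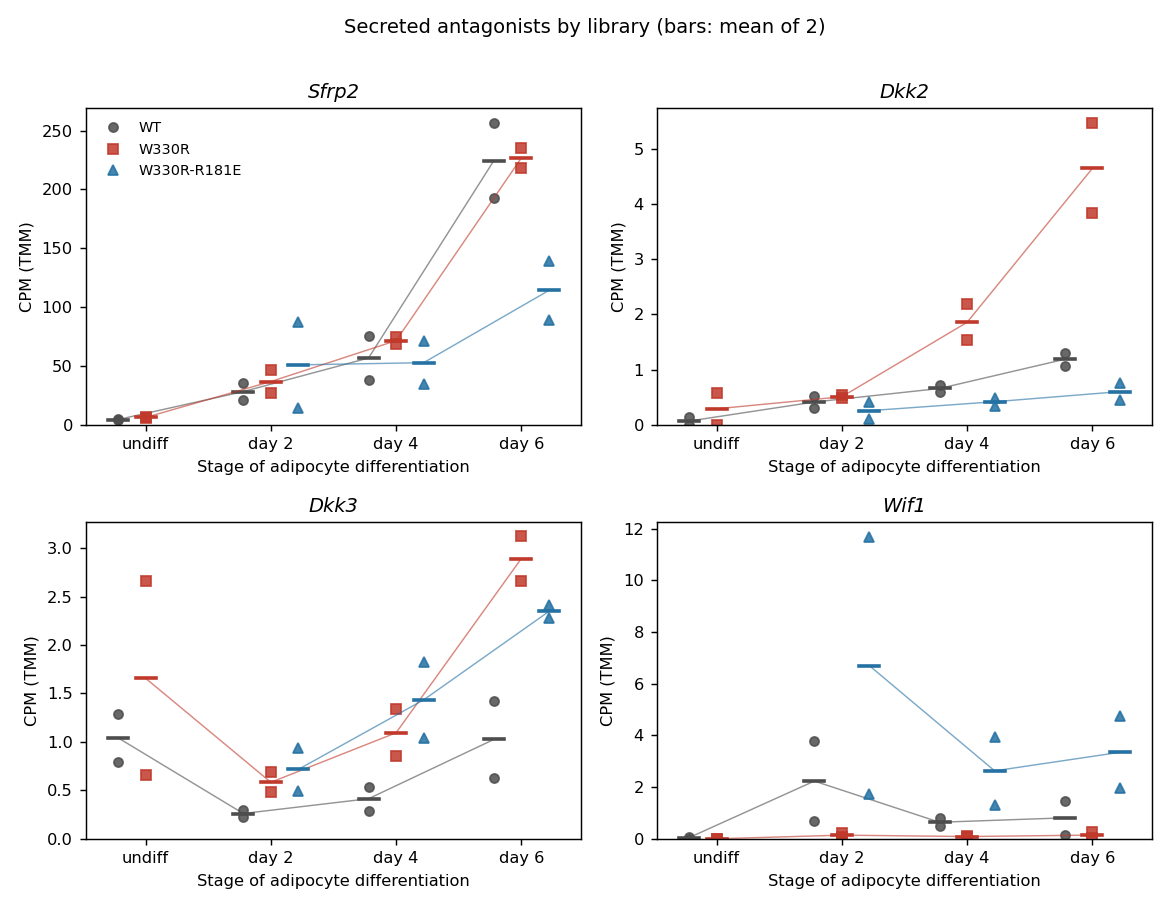
CPM after TMM scaling of Sfrp2, Dkk2, Dkk3 and Wif1 (y axes from 0) by stage (x axis), with 1 point per library, bars for the mean of 2 and lines between means. Dkk2 reaches 3.83 and 5.46 CPM in W330R on day 6 against at most 1.30 in the other genotypes on that day, and Wif1 lies at or below 0.246 CPM in W330R at every stage.

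Next, the stages were compared within each genotype. From undifferentiated cells to day 2 in WT, 6 of the 8 members tested were called, beside 50.9% of all genes. Wnt5b rose 16.6-fold (log2 4.05 ± 0.59), Sfrp1 6.37-fold (2.67 ± 0.47), Sfrp2 6.33-fold (2.66 ± 0.67) and Wnt5a 2.57-fold (1.36 ± 0.24). Dkk3 fell 3.94-fold (log2 -1.98 ± 0.68, adjusted p = 0.0254, edgeR). Wif1 went from 1 pooled read to 64, a ratio of 64.5 after scaling (exact 95% interval 11.2 to 2585, adjusted p = 0.0143 by edgeR). The Wif1 call was lost without WT undifferentiated replicate 2 (adjusted p = 0.125) or WT day 2 replicate 1 (0.101), and that of Dkk3 without WT undifferentiated replicate 2 (0.169) or WT day 2 replicate 1 or 2 (0.104 and 0.0848). In W330R, 5 of 8 were called, beside 48.2% of all genes. Sfrp1 rose 16.9-fold (log2 4.08 ± 0.51), Wnt5a 9.47-fold (3.24 ± 0.26), Sfrp2 5.93-fold (2.57 ± 0.67), Wnt5b 5.36-fold (2.42 ± 0.56) and Wnt9a 2.40-fold (1.27 ± 0.50). The Wnt9a call, at an adjusted p of 0.0478, held in 6 of 22 fits without 1 library and had an adjusted p of 0.272 without W330R undifferentiated replicate 2. Columns of undifferentiated libraries are named by another pattern than those of days 2 to 6, so stage and any separate handling cannot be told apart in this step.

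From day 2 to day 6 the antagonists accounted for the calls. In WT, Sfrp2 rose 7.99-fold (log2 2.998 ± 0.63, adjusted p = 0.00358) and Dkk3 3.78-fold (1.92 ± 0.68, adjusted p = 0.0497), which made 2 of 8 beside 26.6% of all genes by edgeR. In W330R, Dkk2 rose 9.02-fold (3.17 ± 0.76, adjusted p = 0.00791), Sfrp2 6.16-fold (2.62 ± 0.62, adjusted p = 0.00753) and Dkk3 4.87-fold (2.28 ± 0.60, adjusted p = 0.013), or 3 of 8 beside 25% of all genes. In the double mutant Sfrp1 rose 3.04-fold (1.60 ± 0.44, adjusted p = 0.0196), 1 of 8 beside 23.2%, and with the replicate number as a block Dkk3 was called as well (1.71 ± 0.60, adjusted p = 0.0478). With the compared conditions fitted alone, Sfrp1 in the double mutant and Dkk3 in WT were not called (adjusted p = 0.0583 and 0.146), nor was Wnt9a in W330R from undifferentiated cells to day 2 (0.0651). All 3 W330R calls were lost without W330R day 2 replicate 1 (adjusted p = 0.0869 for Sfrp2, 0.0704 for Dkk2 and 0.108 for Dkk3), that of Dkk2 also without W330R day 2 replicate 2 (0.0508) and that of Dkk3 without W330R day 6 replicate 2 (0.0545). Sfrp2 in WT was lost without WT day 2 replicate 2 (0.0505), Sfrp1 in the double mutant without its day 2 replicate 1 or 2 or day 6 replicate 1 (0.0534, 0.125 and 0.0889), and Dkk3 in WT held in 5 of 22 such fits. Whether the genotype effects changed from day 2 to day 6 was tested as well, and edgeR called 0 members for W330R against WT (0 at an unadjusted p under 0.05), beside 0.0895% of all genes, and 0 for the double mutant against W330R (1 at an unadjusted p under 0.05), beside 0%, as did DESeq2.

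Other genes of the pathway were taken from lists of 71 genes. Their counts for W330R against WT stand beside 22.9% of all genes called. For the double mutant against W330R that share was 17.2%. Among 14 other ligands 2 were tested, of which Wnt4 was lower in W330R than in WT (log2 -1.95 ± 0.51, adjusted p = 0.0141) and higher once R181E was added (double mutant against W330R, 2.56 ± 0.56, adjusted p = 0.00678), each by edgeR. The first Wnt4 call was lost without WT day 6 replicate 2 (adjusted p = 0.328) and the second without double-mutant day 6 replicate 1 (0.137). Of 10 other secreted antagonists 4 were tested, and edgeR called 0 between W330R and WT, with 1 at an unadjusted p under 0.05. Between the double mutant and W330R it called 1 of them, Frzb, a relative of the Sfrp proteins. Its means over days 2 to 6 were 139 and 19.5 CPM (log2 2.62 ± 0.67, adjusted p = 0.0157, edgeR). The WT mean was 56.9 CPM, and the double mutant was not called against WT (1.08 ± 0.64, adjusted p = 0.293, edgeR). On day 2 the 10 antagonists summed to 55.2 and 9.21 CPM in the double mutant and 11.7 and 12.4 in W330R. The Frzb call was lost without W330R replicate 1 of day 2, 4 or 6 (adjusted p = 0.0511, 0.0596 and 0.0607) or double-mutant replicate 1 of day 2 or 4 (0.0944 and 0.0545). Of 4 R-spondins, which amplify WNT signals, 2 were tested and Rspo2 was higher in W330R (log2 2.88 ± 0.76, adjusted p = 0.016), though not with days 2 to 6 alone (1.09 ± 0.63, adjusted p = 0.22) or without WT undifferentiated replicate 2 (adjusted p = 0.053). Porcn, the enzyme that attaches the lipid to WNT ligands, was lower in W330R (log2 -1.61 ± 0.44, adjusted p = 0.0171, edgeR). That call was lost without WT replicate 2 of day 4 or day 6. Wls, which carries the ligands to the surface, was not called (0.17 ± 0.09, adjusted p = 0.214, edgeR). Porcn and Wls summed to 416 and 1088 CPM in WT and 163 and 177 in W330R on day 2. On day 6 the sums overlapped, at 90.3 and 134 in WT and 119 and 112 in W330R.

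Of 22 receptor genes 20 were tested, and 2 were higher and 2 lower in W330R than in WT, with a median log2 difference of -0.02 beside 0.01 over all genes. These 4 of 20 stand beside the 22.9% of all genes called in that contrast. Ror1, a receptor for Wnt5a, was higher (log2 0.81 ± 0.15, adjusted p = 0.00224) and fell again in the double mutant against W330R (-0.81 ± 0.17, adjusted p = 0.00548). Ror2, its relative and also a receptor for Wnt5a, was lower in W330R (-1.29 ± 0.31, adjusted p = 0.00958) and also below WT in double-mutant cells (-1.68 ± 0.37, adjusted p = 0.0156). The latter Ror2 call was lost without WT day 2 replicate 2 (adjusted p = 0.0548) or double-mutant day 4 or day 6 replicate 1 (0.0532 and 0.0593), or with the compared conditions fitted alone (0.0758). Fzd5, a Frizzled, was lower in W330R (-0.35 ± 0.11), a call that held in 10 of 22 fits without 1 library.

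The list of beta-catenin targets holds 15 genes, of which 12 were tested, 1 was higher and 3 were lower in W330R than in WT, with a median of -0.30 beside 0.01 over all genes, or 4 of 12 called beside 22.9%. The median was not of one sign over the stages: it was -1.41 before differentiation and -0.34 on day 2, but 0.43 and 0.22 on days 4 and 6. Between the double mutant and W330R 5 of the 12 were called, 1 higher and 4 lower, beside 17.2% of all genes. The median there was -0.27 beside 0.01. Lef1, a transcription factor of the pathway, was lower in W330R (log2 -1.75 ± 0.28, adjusted p = 0.00098, edgeR). It was the 1 target called higher with R181E added (1.52 ± 0.31, adjusted p = 0.00406, edgeR). Apcdd1, a membrane-bound inhibitor of WNT signalling, was lower in W330R (-2.16 ± 0.49, adjusted p = 0.00777), by -0.996 with days 2 to 6 alone (adjusted p = 0.0247). Wisp1, a matricellular protein listed under its newer symbol Ccn4, went the other way: it was higher in W330R (0.69 ± 0.14, adjusted p = 0.00356, and 1.44 with days 2 to 6 alone, adjusted p = 5.8e-05) and lower with R181E added (-2.02 ± 0.17, adjusted p = 1e-05). Axin2, often used as a readout of beta-catenin, was not called between W330R and WT (-0.62 ± 0.56, adjusted p = 0.46). Of 9 intracellular components, 9 were tested and 3 were higher in W330R, beside 11.2% of all genes, with a median of 0.13: Tcf7l1 (0.50 ± 0.15), Dvl2 (0.37 ± 0.07) and Axin1 (0.25 ± 0.06). The Tcf7l1 call held in 12 of 22 fits without 1 library and had an adjusted p of 0.146 with days 2 to 6 alone. Between the double mutant and W330R, Dvl2 (-0.34 ± 0.08) and Axin1 (-0.22 ± 0.07) were lower, the latter in 9 of 22 such fits, and neither was called with the compared conditions fitted alone (adjusted p = 0.0544 and 0.102).

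**Figure D5:**
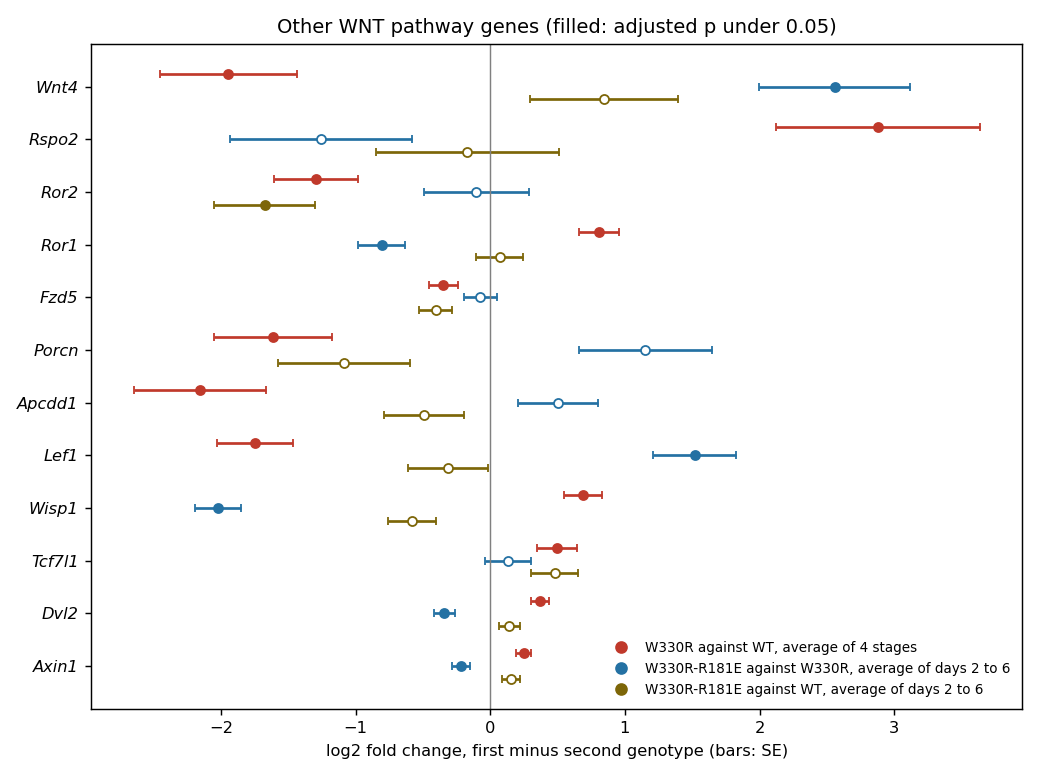
Log2 fold changes (x axis) with standard errors of 12 other WNT pathway genes in the 3 genotype contrasts (colours); filled points had an adjusted p under 0.05 by edgeR. Wnt4 and Lef1 lie at -1.95 and -1.75 for W330R against WT and at 2.56 and 1.52 for the double mutant against W330R, and Ror1 and Wisp1 show the opposite order.

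Markers of the differentiation state moved with the same contrasts. The summed level of 8 adipocyte markers was 51.5 to 59.6 CPM in undifferentiated cells and, on days 2 to 6, 2876 to 9229 in WT, 1441 to 2528 in W330R and 1701 to 4348 in the double mutant. Over 4 stages 4 of the 8 were lower and 0 higher in W330R than in WT, beside 22.9% of all genes called, but 3 of them (Plin1, Cidec and Cd36) had 0 counts in all 4 undifferentiated libraries and their 4-stage value could not be estimated. On day 6 alone 7 of the 8 were lower, beside 7.54%. Between the double mutant and W330R 4 were higher and 1 lower, beside 17.2% called, and between the double mutant and WT 4 were lower, beside 9.57%. Of 7 mesenchymal markers 3 were higher in W330R than in WT, beside 11.2% of all genes, and 4 were lower when R181E was added, beside 9.36%, with sums of 20508 to 23237 CPM in undifferentiated cells and, on days 2 to 6, 3373 to 14868 in WT, 3934 to 16616 in W330R and 2842 to 15215 in the double mutant. In bulk libraries fewer cells of a type and less RNA per cell cannot be told apart, and the part of these markers in the results on the WNT members was not tested. Of 11 markers of other cell types, Epcam, Myod1 and Ckm had 0 counts in all libraries, 8 of the 11 stayed under 1 CPM in every library, and the sum was 4.17 to 22.6 CPM. Of the 4 tested, 1 was called between W330R and WT, beside 22.9%: Cdh1, an epithelial cadherin, was higher in W330R (log2 1.44 ± 0.44, adjusted p = 0.0289, edgeR), with 0 to 3.67 CPM over all libraries. That call held in 12 of 22 fits without 1 library, and its part in the results above was not tested.

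Lastly, the likeness of patterns over the 22 libraries was described by Pearson's r on log2 CPM, without a test, since the libraries share conditions and stages. The gene most like Wnt5a was Mex3a (r = 0.914), and that most like Wnt5b was Tgif2 (0.942). Sfrp1 was most like H2-DMb1 (0.955), Dkk2 like Bai2 (0.927) and Wif1 like St3gal6 (0.917). For Dkk3 and Wnt9a the closest genes were Scmh1 (0.836) and Fchsd1 (0.817). Among the members themselves over the 18 libraries of days 2 to 6, Wnt5a and Wif1 ran opposite to each other (r = -0.827). Sfrp2 and Dkk2 were the most alike there (r = 0.752). Over all 22 libraries Wnt5a and Wif1 had r = -0.175, and Wnt5b and Sfrp2 were the most alike (0.847). These values include the genotype differences given above, and Wif1 had 1 to 6 reads in W330R libraries of days 2 to 6.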

How the data were processed

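RNA-seq libraries were prepared by the authors from total RNA with a NEBNext Ultra II kit. The authors deposited whole-number read counts per gene symbol for 22 libraries, without normalization. The submitters' processing notes name kallisto, DESeq2 1.40 and GRCm39 without roles, and strand handling is not given in the sources used here. Each column was matched to its sample by genotype, stage and replicate number.

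From these deposited counts, 14520 of 30170 genes passed filterByExpr (at least 10 counts in enough libraries and 15 in total), run in edgeR 4.0.16 under R 4.3.3. After TMM scaling, 1 quasi-likelihood model with 1 mean per condition was fitted to all 22 libraries, so that conditions shared the spread, and 18 contrasts were tested over all genes, and Benjamini-Hochberg adjusted p-values under 0.05 were called. The SE is the log2 fold change over the square root of F. Level per kilobase used the longest protein-coding transcript in GENCODE (GRCm38), a build other than the one named, and promoters came from RefSeq. Log2 CPM for correlations used a prior count of 2. Depth limits low values: 3 counts were the floor, and pooled-read ratios have exact 95% binomial intervals.

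The members and gene lists were chosen with earlier results of these data known. The text names the 10 members, Dnmt3a, for each other list up to 3 genes called between W330R and WT with the largest change and a mean log2 CPM of at least 0, and the gene most alike to each member, of which 1 is not reported here. Wls, Axin2, Frzb, Cdh1 and the other single markers were named after their values were seen. The steps were tested on simulated data. Replicate numbers come from the labels. Between conditions, the residuals of libraries sharing a number correlated at 0.157 to 0.534 in 9 of 9 pairs of conditions of the same day (days 2 to 6). These numbers were therefore taken to pair libraries of days 2 to 6. The correlation was not limited to the same day. Between different days of the same genotype it was 0.100 to 0.461. Over all pairs of conditions of days 2 to 6 its mean was 0.215. In undifferentiated cells the correlation was 0.0298, and the numbers were not read as pairs there. The main model held no term for the pairing, so its p-values leave it out. It also took libraries of different days as independent, and the p-values of the averaged contrasts do not allow for their correlation. The block among the alternatives used the number in all 22 libraries, with the undifferentiated ones included. Alternatives were DESeq2 1.42.0, RLE scaling, no filter, a fit restricted to the compared conditions, a block for the replicate number, days 2 to 6 alone, CPM without TMM, and leaving out each library.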

Additional observations from a re-analysis of the deposited data

Results flagged for a closer look

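The difference of Wnt5a between W330R and WT changed sign between stages. It was log2 -0.75 ± 0.26 in undifferentiated cells and 1.13 ± 0.23 on day 2, and the test of the change itself gave 1.88 ± 0.35 (adjusted p = 0.0142, edgeR). All 4 day 2 libraries followed this order, with W330R at 35.3 and 39.9 CPM and WT at 18.3 and 16.2, and all 4 undifferentiated libraries the opposite one, with W330R at 3.67 and 4.28 and WT at 6.34 and 6.99. The call held in 18 of 22 fits without 1 library and was lost without WT undifferentiated replicate 2 (1.80, adjusted p = 0.0725), W330R undifferentiated replicate 1 (1.77, adjusted p = 0.0853) or replicate 2 (1.98, adjusted p = 0.053), or WT day 2 replicate 2 (1.82, adjusted p = 0.0543). Total counts were 8895715 to 23727021 in the undifferentiated libraries, and the column names of these libraries follow another pattern, whose part in this result was not tested.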

How the results depend on the processing

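Across 69 gene results and 1884 alternatives, 1674 kept direction and side of the threshold, 185 lost the call, 11 gained it and 14 turned direction. Where an alternative changed a count of members called, the cause was not tested. Shares over all genes are not given for the alternatives, so their counts cannot be set beside them. With DESeq2 the counts became 1 for W330R against WT in undifferentiated cells (0 with edgeR) and 2 on day 6 (1), 2, 2 and 3 for the double mutant against W330R on days 2, 4 and 6 (1 each), 1 for WT day 6 against day 2 (2) and 2 for the double mutant day 6 against day 2 (1). RLE scaling gave 2 for the last. Without the filter the double mutant against W330R had 2, 2 and 3 calls and WT day 6 against day 2 had 1. Fitting only the compared conditions, with fewer libraries for the spread, gave 3 for W330R against WT undifferentiated, 0 on days 2, 4 and 6, 0 for the double mutant against W330R on each day, 1 for the double mutant against WT averaged (3), 1 for WT day 6 against day 2 and 0 for the double mutant.

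With the replicate number as a block, 2 members were called for the double mutant against W330R on day 2, 3 on day 6, and 2 for day 6 against day 2 of the double mutant. Beyond these and Wif1 in the double mutant against WT, the block changed no call of the results given.

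Without 1 library, where a lone library is assumed to vary like the other groups, the counts ranged from 2 to 4 for W330R against WT averaged, 3 to 5 for the double mutant against W330R and 1 to 4 against WT. By stage they were 0 to 1 for W330R against WT on days 2, 4 and 6, 1 to 2, 0 to 1 and 1 to 2 for the double mutant against W330R, 4 to 7 and 4 to 6 for day 2 against undifferentiated cells in WT and W330R, 0 to 2, 0 to 3 and 0 to 2 for day 6 against day 2 in WT, W330R and the double mutant, and 0 to 1 for the change of the W330R effect from undifferentiated cells to day 2. Directions turned for values that were near 0 or rest on few reads: Wnt5b in W330R against WT (-0.062 to 0.19, and -0.26 with days 2 to 6 alone), Dkk2 in W330R against WT (-0.025 to 2.30), Sfrp2 in the double mutant against WT (-0.68 to 0.20) and Dkk3 in the double mutant against W330R (-0.036 to 0.26). The order of levels per kilobase was the same without TMM. Depth limits Wnt6, Wnt10b, and Wif1 and Dkk2 in undifferentiated cells.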
